A study of Danio rerio with 6 samples.

Results

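The Snail, Twist and Prrx1 genes encode transcription factors of mesenchymal cells. They were taken from both deposited tables as every row whose gene name was exactly *snai1a*, *snai1b*, *snai2*, *twist1a*, *twist1b*, *twist2*, *twist3*, *prrx1a* or *prrx1b*. All 9 names were present and gave 10 rows out of the 29978 genes listed, because 2 rows carried the name *twist1b*. RNA was sequenced from pools of dissected zebrafish hearts, with 3 pools at 48 hours post fertilization (hpf) and 3 at 56 hpf. The sample labels give the AB line, and the methods give *myl7:EGFP* embryos, whose reporter marks heart muscle. The methods give phenylthiourea (PTU), which blocks pigment, as a treatment shared by all embryos, and the labels give no further treatment or mutation for either stage. The pools of both stages came from dissected hearts, so the values are averages over all cells of the dissected tissue. The comparison asks how these genes stand at the stages when endocardial cells of the atrioventricular canal begin to move into the cardiac jelly.

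Snail proteins are zinc-finger repressors that bind E-box sequences, and in mouse and chick they silence cadherin and tight junction genes when epithelial or endocardial cells become mesenchymal. Twist proteins are basic helix-loop-helix (bHLH) factors that bind E-boxes as dimers with E proteins, and Id proteins hold E proteins in complexes that cannot bind DNA. Prrx1 proteins are homeodomain factors of limb, craniofacial and other mesenchyme, and in zebrafish *prrx1a* has been tied to the looping of the heart. In mouse, members of all these families are expressed in the mesenchyme of the valve cushions.

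Reads counted on genes ranged from 14369087 to 26942838 per library. A normalized count is the number of reads of a gene after scaling each library by its size factor. At this depth the limit of detection, 3 reads, corresponded to between 2.13 and 3.98 normalized counts, which covers counting error only. Pools of the same stage differed beyond counting error (chi-square of 25.4 to 99.6 per gene, against about 1 from counting error alone), and each was taken as a separate sample. All 10 genes of the heart muscle list were detected, among them *myl7* and *vmhc*, but their summed level was uneven at 48 hpf, with 480926 normalized counts in replicate 1, 1005370 in replicate 2 and 1210110 in replicate 3, against 442327 to 502374 at 56 hpf. Nothing in the labels says that the pools came from separate clutches, so the p-values measure the spread between these pools.

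All 10 rows were detected in every pool, with 9 reads or more, and passed the filter on low counts. None had an adjusted p under 0.05 between the stages (limma, with p-values adjusted by Benjamini-Hochberg over the 20805 genes tested), where 1.08% of all genes tested did. At an unadjusted p under 0.05 there were 4 rows, *twist1a*, *twist1b* (ENSDARG00000076010), *prrx1a* and *prrx1b*, all lower at 56 hpf. Of all genes tested, 18.5% had such a p in either direction and 7.31% were lower. In the same 4 rows each 56 hpf pool lay below each 48 hpf pool, as it did for 11.1% of all genes tested, and 24.3% were apart in either direction. The fitted change was below 0 in 8 of the 10 rows, against 50.5% of all genes tested, and its median was -0.37 on the log2 scale, against -0.0073 over all genes. With the block kept, 0 of the rows passed by edgeR's quasi-likelihood test on the recovered reads, 1 by DESeq2 (*twist1a*) and 2 by edgeR's likelihood ratio test (*twist1a* and *prrx1b*). These tests called 0.75%, 7.66% and 8.37% of all genes with an adjusted p, and 0.149%, 2.07% and 2.58% as lower, so that the DESeq2 and likelihood ratio counts come with a wider background than limma's. In bulk pools, fewer cells of a type and less RNA per cell cannot be told apart.

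**Figure D1:**
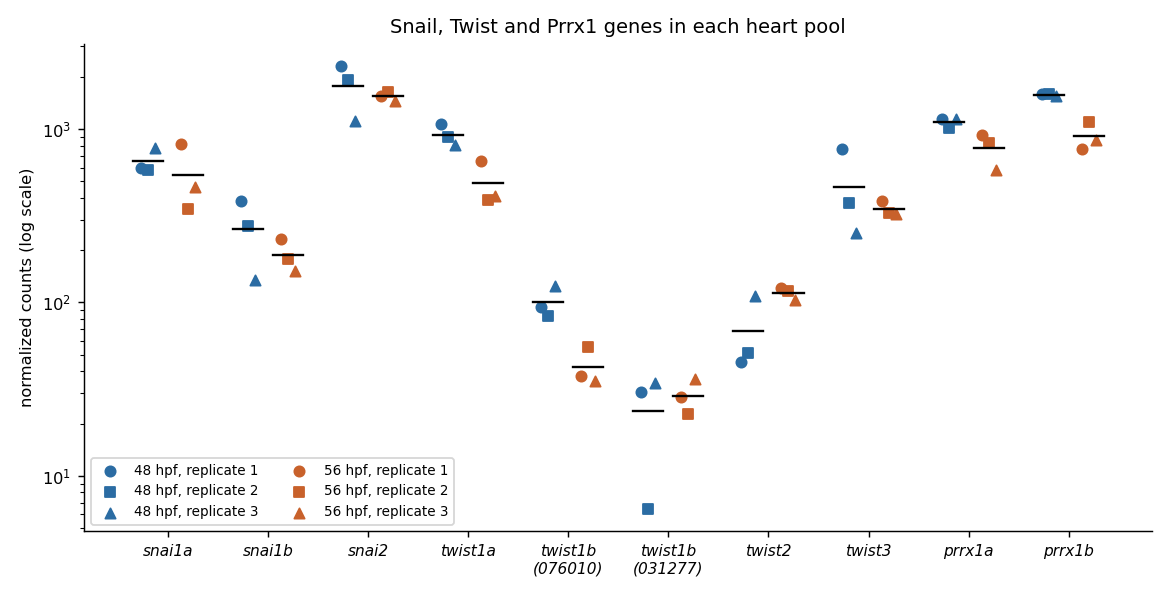
Normalized counts (log axis) of the 10 rows in each of the 6 heart pools, blue for 48 hpf and orange for 56 hpf, with the marker shape giving the replicate number and black lines the means of 3 pools. The digits beside *twist1b* are the end of the row's identifier, and the blue and orange points are apart for *twist1a*, the first *twist1b* row, *prrx1a* and *prrx1b*, and mixed for the other rows.

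Of the Snail genes, *snai2* had the most reads, though reads were not corrected for transcript length and levels of different genes are not compared here. *snai2* (ENSDARG00000040046), known as Slug, is a Snail repressor used in neural crest and cushion cells of other vertebrates. Its normalized counts in replicates 1, 2 and 3 were 2309, 1916 and 1109 at 48 hpf, followed by 1553, 1644 and 1462 at 56 hpf. The 48 hpf pools spread more widely than the 56 hpf pools and lay on both sides of them. From a mean of 1778 ± 612 (SD, n = 3 pools) to one of 1553 ± 90.8 (SD, n = 3), the log2 fold change was -0.13 ± 0.23 (standard error, as for all fold changes below), with a 95% interval from -0.69 to 0.43 (limma adjusted p = 0.805). The direction rested on 48 hpf replicate 1, since leaving it out, without the block, gave a change of 0.089.

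*snai1a* and *snai1b* are the zebrafish copies of Snail1, the repressor of the E-cadherin gene in mammals. *snai1a* (ENSDARG00000056995) stood at 597, 584 and 776 normalized counts in the 48 hpf pools, against 819, 346 and 463 in the 56 hpf pools. Its highest and its lowest pool were both at 56 hpf, and its log2 fold change was -0.35 ± 0.29, with an interval from -1.03 to 0.33 (limma adjusted p = 0.557). *snai1b* (ENSDARG00000046019) stood at 386, 275 and 134 normalized counts in the 48 hpf pools, against 232, 177 and 152 in the 56 hpf pools. As for *snai2*, replicates 1 and 3 at 48 hpf held the highest and the lowest value. Its log2 fold change was -0.40 ± 0.28, with an interval from -1.06 to 0.26 (limma adjusted p = 0.482). These intervals leave room for falls of about 1 on the log2 scale in *snai1a* and *snai1b*, which 3 pools a stage could not separate from no change.

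Of the Twist genes, *twist1a* (ENSDARG00000030402) is one of the zebrafish copies of Twist1, a factor of cranial and cushion mesenchyme in mouse. The 48 hpf pools held 1070.0, 905 and 812 normalized counts and the 56 hpf pools 653, 391 and 412. Every pool at 56 hpf was below every pool at 48 hpf (p = 0.1 in a two-sided exact permutation test, which can go no lower with 3 pools against 3). The mean of 929 ± 131 (SD, n = 3 pools) stood against one of 486 ± 145 (SD, n = 3), 0.523 times as high. On the log2 scale the difference was -0.97 ± 0.20, with an interval from -1.44 to -0.49, and the limma adjusted p of 0.0811 missed the threshold. Whether it passed turned on the test and on the pools. The adjusted p was 0.0911 by edgeR's quasi-likelihood test, 0.0174 by DESeq2 and 0.00669 by edgeR's likelihood ratio test. By limma it was 0.0256 without replicate 1, 0.649 without replicate 2, and 0.0275 without 56 hpf replicate 1 when no block was used. Without replicate 1 limma called 2076 genes in all, against 225 in the reported fit. Over the 20 alternatives the difference ranged from -1.20 to -0.83. As the stages were apart, leaving out pools could hardly turn its direction, and the filters and the block do not alter a fold change.

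The name *twist1b* stood on 2 rows, ENSDARG00000076010 and ENSDARG00000031277. Only the first is listed in the reference gene names used here. The first row held 94.3, 83.2 and 124 normalized counts in the 48 hpf pools, against 37.4, 55.4 and 35.1 in the 56 hpf pools. Each 56 hpf pool was below each 48 hpf pool, with a log2 fold change of -1.23 ± 0.38 and an interval from -2.14 to -0.32 (limma adjusted p = 0.163). The second row held 30.5, 6.40 and 34.2 normalized counts in the 48 hpf pools, against 28.3, 22.7 and 35.9 in the 56 hpf pools. Its stages overlapped, and its lowest value rested on 9 reads. The change was 0.55 ± 0.55, with an interval from -0.76 to 1.86 (limma adjusted p = 0.636), and it was -0.016 without replicate 2. The first row held between 75.5 and 92.9% of the reads of both rows at 48 hpf and between 49.4 and 70.9% at 56 hpf. This share was chosen after seeing the data (two-sided exact permutation p = 0.1, and 0.5 after Benjamini-Hochberg adjustment over the 10 shares compared). Per the methods only reads with a unique alignment were retained, which would leave out reads that fit both rows equally. The submitters' processing notes name other tools, so how such reads were handled is not settled, and the level of each row is uncertain. With the reads of both rows added up before the fit, an alternative chosen after seeing the data, the change of *twist1b* was -0.75 (limma adjusted p = 0.288).

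*twist2* and *twist3* are the remaining Twist genes of the zebrafish, and *twist2* is the counterpart of mammalian Dermo1, a factor of dermal mesenchyme. *twist2* (ENSDARG00000078266) stood at 45.1, 51.2 and 109 normalized counts in the 48 hpf pools, against 121, 116 and 104 in the 56 hpf pools. The stages overlapped through a single pool, 48 hpf replicate 3, which was above 56 hpf replicate 3. Its log2 fold change was 0.83 ± 0.39, with an interval from -0.10 to 1.76 (limma adjusted p = 0.316). Over the 20 alternatives it ranged from 0.54 to 1.28. *twist3* (ENSDARG00000019646) stood at 766, 376 and 249.9 normalized counts in the 48 hpf pools, against 382, 330.1 and 326 in the 56 hpf pools. The 48 hpf pools again spread widely, on both sides of the 56 hpf pools. The change was -0.27 ± 0.29, with an interval from -0.97 to 0.43 (limma adjusted p = 0.668), and it was 0.17 without 48 hpf replicate 1 when no block was used.

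**Figure D2:**
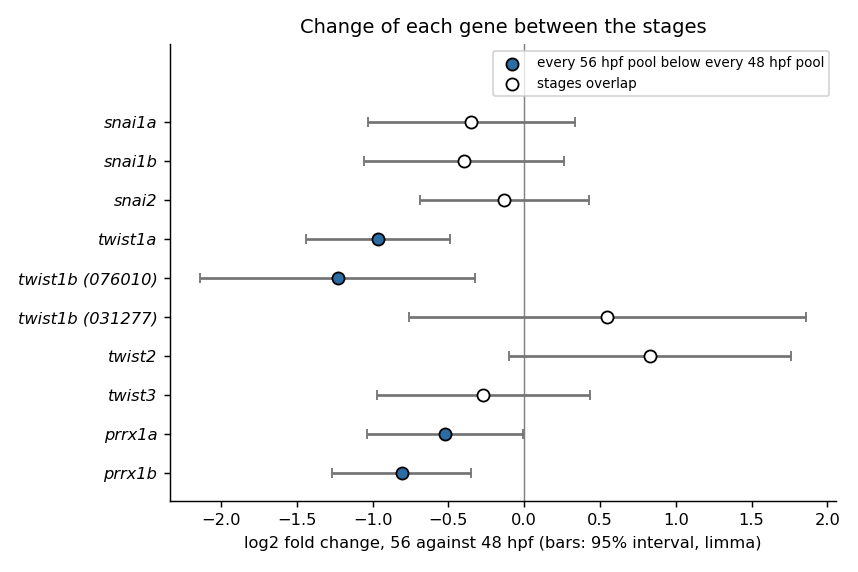
Log2 fold change of each row, 56 against 48 hpf, with bars giving the 95% interval from limma. Filled points mark the 4 rows in which every 56 hpf pool was below every 48 hpf pool, and their intervals lie below 0, with that of *prrx1a* reaching to -0.0054, while none of the 10 rows had an adjusted p under 0.05.

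*prrx1a* and *prrx1b* are the zebrafish copies of the homeobox gene Prrx1. *prrx1b* (ENSDARG00000042027) held 1586, 1604 and 1551 normalized counts in the 48 hpf pools, against 771, 1102 and 864 in the 56 hpf pools. The 48 hpf pools were nearly level, and each 56 hpf pool was below all of them. The mean of 1580.4 ± 26.8 (SD, n = 3 pools) stood against one of 912 ± 171 (SD, n = 3), 0.577 times as high. On the log2 scale the difference was -0.81 ± 0.19, with an interval from -1.27 to -0.35 (limma adjusted p = 0.101). Its adjusted p was 0.0264 by edgeR's likelihood ratio test and 0.05004 by DESeq2, just above the threshold. *prrx1a* (ENSDARG00000033971) held 1144, 1009.9 and 1145 normalized counts in the 48 hpf pools, against 925, 830.3 and 583 in the 56 hpf pools. Here too the stages did not overlap, and the lowest 48 hpf pool stood close above the highest 56 hpf pool. The difference was -0.52 ± 0.22, with an interval from -1.04 to -0.0054 (limma adjusted p = 0.266). Over the 20 alternatives the difference ranged from -0.95 to -0.68 for *prrx1b* and from -0.66 to -0.30 for *prrx1a*. With the stages apart, leaving out pools could hardly turn either direction.

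The reads of a family were next divided among its members within each pool, a share that does not depend on the size factors. In all, 10 shares were compared between the stages, 5 of them chosen after seeing the data, and none could give a two-sided exact permutation p under 0.1. *snai2* held between 54.9 and 70.1% of the Snail reads at 48 hpf and between 59.7 and 75.9% at 56 hpf, and *snai1a* between 18.1 and 38.4% and between 15.97 and 31.4%. The lowest share of *snai2* and the highest of *snai1a* were in 48 hpf replicate 3. The Snail shares overlapped between the stages (exact permutation p of 0.5 for *snai2* and 0.7 for *snai1a*).

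*twist2* held 2.25, 3.60 and 8.21% of the Twist reads in the 48 hpf pools, against 9.93, 12.6 and 11.3% in the 56 hpf pools, so that every 56 hpf pool was above every 48 hpf pool. This share, 4.69 ± 3.12% (SD, n = 3) against 11.3 ± 1.35% (SD, n = 3), is one of those chosen after seeing the data (exact permutation p = 0.1, and 0.5 after Benjamini-Hochberg adjustment over the 10 shares). *twist1a* held 59.4 ± 5.36% (SD, n = 3) of the Twist reads at 48 hpf and 47.1 ± 5.57% (SD, n = 3) at 56 hpf, and the stages just overlapped at 53.3 and 53.4% (exact permutation p = 0.2). *prrx1a* held 41.9, 38.6 and 42.5% of the Prrx1 reads in the 48 hpf pools, against 54.5, 43.0 and 40.3% in the 56 hpf pools. The difference rested on 56 hpf replicate 1, since it was 4.92 percentage points with that pool and 0.615 without it.

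**Figure D3:**
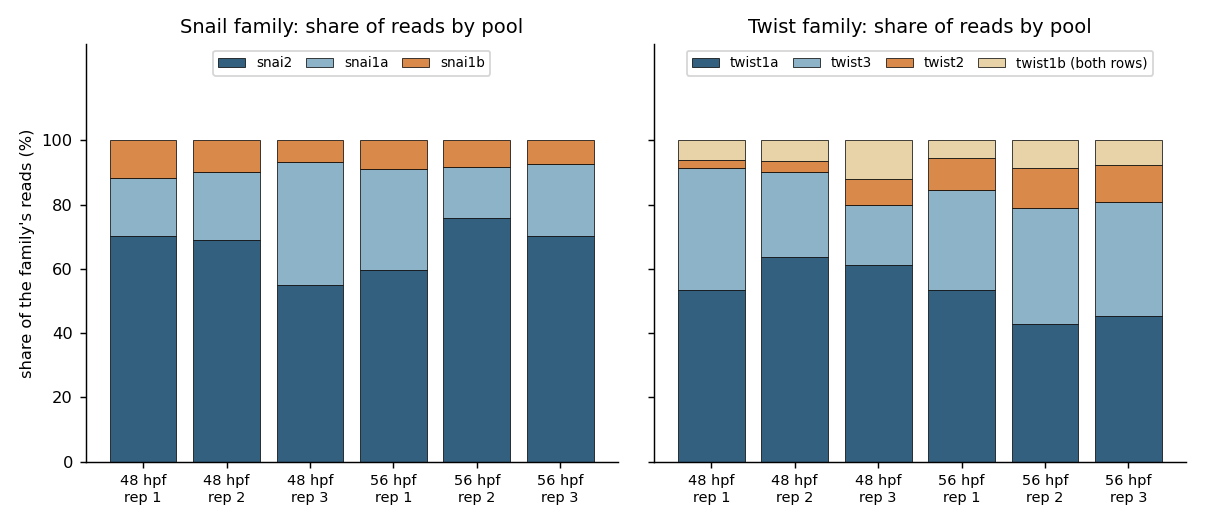
Share of the reads of the Snail family (left) and of the Twist family (right) held by each gene in each pool, in percent, not corrected for transcript length. *twist2* takes 2.25 to 8.21% of the Twist reads in the 48 hpf pools, against 9.93 to 12.6% in the 56 hpf pools, while the Snail shares of the stages overlap.

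The other genes of the pathway were read from 6 lists. Over all genes tested, 11.2% were higher and 7.31% lower at an unadjusted p under 0.05, and 50.5% had a log2 fold change below 0. The quasi-likelihood test called 0.601% higher and 0.149% lower, the likelihood ratio test 5.79% and 2.58%, and DESeq2 5.59% and 2.07%, and the list counts below are to be read against these shares. Of the relatives of Snail and the Zeb repressors, which also bind E-boxes and silence junction genes, 7 of 8 were tested. None was called in either direction by limma, by either edgeR test or by DESeq2, 3 were lower (7.31% of all genes) and 0 higher (11.2%) at an unadjusted p under 0.05, and the median log2 fold change was -0.67. *zeb1b* held 3197, 4390.2 and 5259.9 normalized counts in the 48 hpf pools, against 2670.3, 2253 and 2160.1 in the 56 hpf pools, and *zeb1a* held 1249, 939 and 909 against 783, 615 and 554. Both were lower in every 56 hpf pool, by log2 fold changes of -0.84 ± 0.25 (limma adjusted p = 0.146) for *zeb1b* and -0.67 ± 0.18 (limma adjusted p = 0.128) for *zeb1a*. *zeb2a*, with overlapping stages, had -0.35 ± 0.23 (limma adjusted p = 0.451). *scrt2*, another Snail relative on the list, was also lower at an unadjusted p under 0.05, with overlapping stages (-1.59 ± 0.57, limma adjusted p = 0.212). *snai3* was near the limit of detection, with no more than 4 reads in a pool, and was not tested. Without replicate 1, when 2076 genes were called in all against 225 with every pool, the limma adjusted p of *zeb1b* was 0.0190. Over the other alternatives it reached 0.800 by limma.

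Among the bHLH partners of Twist and their Id inhibitors, 13 rows were tested and none was called by limma, by either edgeR test or by DESeq2. At an unadjusted p under 0.05, 2 were lower (7.31% of all genes) and 0 higher (11.2%), and the median log2 fold change was -0.30. The E protein genes *tcf3b* and *tcf12* had log2 fold changes of -0.39 ± 0.20 (limma adjusted p = 0.358) and -0.34 ± 0.19 (limma adjusted p = 0.385), and for both every 56 hpf pool was below every 48 hpf pool. *hand2*, a bHLH gene of the heart and pharyngeal arches, held 2505, 4084 and 4131 normalized counts in the 48 hpf pools, against 2740.1, 2045 and 1732 in the 56 hpf pools. Its stages overlapped through 48 hpf replicate 1 (-0.71 ± 0.29, limma adjusted p = 0.265). Without replicate 1, when 2076 genes were called in all, its limma adjusted p was 0.0178. Over the other alternatives it reached 0.891 by limma.

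Among other paired-class homeobox genes, 12 rows were tested and none was called by limma, edgeR's quasi-likelihood test or DESeq2, while the likelihood ratio test called 1 higher and 1 lower. At an unadjusted p under 0.05, 3 were higher (11.2% of all genes) and 1 lower (7.31%), and the median was 0.06. *pitx1*, a homeobox gene of hindlimb patterning, had a log2 fold change of 0.78 ± 0.31 (limma adjusted p = 0.248). *alx4a*, a gene of craniofacial and limb mesenchyme, had -0.21 ± 0.26 (limma adjusted p = 0.696). The stages of *pitx1* were apart, and those of *alx4a* overlapped.

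Of the junction genes, the class that Snail proteins repress in other species, 18 were tested. None was called by limma or by edgeR's quasi-likelihood test, while the likelihood ratio test called 3 and DESeq2 called 5, all higher at 56 hpf, where they called 5.79% and 5.59% of all genes higher. At an unadjusted p under 0.05, 6 were higher, where 11.2% of all genes tested were, and 1 was lower (7.31%). The 6 were *cdh1*, *epcam*, *oclna*, *f11r*, *tjp2a* and *jupa*, and the 1 lower was *tjp1b*. The log2 fold change was above 0 in 11 rows and below 0 in 7, with a median of 0.47. *epcam* is also on the epidermis list, where all 10 genes had a log2 fold change above 0 (50.5% of all genes were below 0). On that list limma called 1 higher (0.87% of all genes) and the quasi-likelihood test 1 (0.601%). The likelihood ratio test called 5 higher (5.79%) and DESeq2 called 8 (5.59%). At an unadjusted p under 0.05, 6 were higher (11.2%). The part of epidermis in the junction values was not tested. *cdh5*, VE-cadherin of endocardial and endothelial junctions, held 5634, 9402 and 13374 normalized counts in the 48 hpf pools, against 7193, 5846 and 6733 in the 56 hpf pools. Its lowest and its highest pool were both at 48 hpf (-0.44 ± 0.30, limma adjusted p = 0.478). Its limma adjusted p was 0.0463 without replicate 1 and reached 0.966 over the other alternatives. *tjp1a*, which encodes the junction protein ZO-1, was lower in every 56 hpf pool (-0.45 ± 0.23, limma adjusted p = 0.349), and the desmosomal gene *dspa* had 0.16 ± 0.26 (limma adjusted p = 0.780).

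*cdh1*, the gene for E-cadherin, was picked out after its values were seen. It held 3648, 2956 and 2179 normalized counts in the 48 hpf pools, against 4819, 6484 and 5772 in the 56 hpf pools. Each 56 hpf pool was above each 48 hpf pool, by a log2 fold change of 0.98 ± 0.25 (limma adjusted p = 0.112). The epidermis list, whose cells carry E-cadherin, summed to between 142676 and 391491 normalized counts at 48 hpf and between 429756 and 752787 at 56 hpf, and its part in the *cdh1* values was not tested.

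Of the mesenchymal genes, 25 rows were tested, 1 was called higher and none lower by limma, where 0.87% of all genes tested were called higher and 0.211% lower. At an unadjusted p under 0.05, 4 were higher (11.2% of all genes) and 5 lower (7.31%), and the median log2 fold change was 0.23. The quasi-likelihood test called 1 higher and 0 lower, the likelihood ratio test 3 and 3, and DESeq2 3 and 2. The gene called was *lox*, lysyl oxidase, an enzyme that cross-links collagen and elastin. Its reads numbered 5, 11 and 18 in the 48 hpf pools, against 42, 106 and 186 in the 56 hpf pools, or 12.4 ± 9.03 (SD, n = 3 pools) against 100.9 ± 56.5 (SD, n = 3) normalized counts. It rose by 2.94 ± 0.45 on the log2 scale (limma adjusted p = 0.0432). It passed the filter on low counts through the 56 hpf pools, where it was high, and was not tested when at least 10 reads were asked for in every library, which left 0 mesenchymal genes called. The call was lost without replicate 2 (adjusted p = 0.462) and, when no block was used, without 48 hpf replicate 1 (0.0579), 48 hpf replicate 2 (0.165), 56 hpf replicate 2 (0.171) or 56 hpf replicate 3 (0.196). *fn1b*, which encodes a fibronectin, had a log2 fold change of 2.39 ± 0.49 (limma adjusted p = 0.0811). By limma its adjusted p was 0.0212 without the block, 0.00686 without replicate 1 and up to 0.681 over the other alternatives. Its adjusted p was 0.0957 by edgeR's quasi-likelihood test, 3.22e-05 by the likelihood ratio test and 7.63e-09 by DESeq2. The collagen genes *col1a1a* and *col1a1b* had 0.80 ± 0.37 (adjusted p = 0.311) and 0.48 ± 0.42 (adjusted p = 0.582). The stages were apart for *fn1b* and overlapped for both collagens. Besides *lox* and *fn1b*, *postna* (2.33 ± 0.39) and *mmp2* (0.78 ± 0.23) were higher at an unadjusted p under 0.05. The 5 lower rows at that p were *vcanb* (-0.99 ± 0.19), *tnc* (-1.32 ± 0.37), *vcana* (-1.05 ± 0.41) and both rows named *pdgfra* (-0.55 ± 0.20 and -0.80 ± 0.21). Of these higher and lower rows, only *vcana* had overlapping stages, which follows in part from picking them by p on the same values. Among all 25 tested rows the stages were apart in 4 higher (13.2% of all genes) and 4 lower (11.1%).

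The signals that call out cushion cells in mouse (BMP, TGF-beta, Notch, ErbB and their cardiac factors) gave 34 tested rows and no call by limma or by edgeR's quasi-likelihood test. The likelihood ratio test called 2 higher and 2 lower, DESeq2 called 2 higher and 1 lower, and at an unadjusted p under 0.05, 3 were higher (11.2% of all genes) and 4 lower (7.31%). The median log2 fold change was -0.21. The 3 higher were *erbb3b* (2.01 ± 0.39), *erbb3a* (1.53 ± 0.38) and *bmp2a* (1.17 ± 0.44). The 4 lower were *bmp4* (-1.01 ± 0.29), *has2* (-0.78 ± 0.20), *dll4* (-0.68 ± 0.27) and *bmpr1ab* (-0.58 ± 0.18). Of these higher and lower genes, only *bmp2a* had overlapping stages, which follows in part from picking them by p on the same values. Among all 34 tested rows the stages were apart in 4 higher (13.2% of all genes) and 6 lower (11.1%). The genes named by their read number were the T-box factor *tbx20* (-0.54 ± 0.26, limma adjusted p = 0.328), the Notch receptor *notch1b* (-0.55 ± 0.31, adjusted p = 0.381) and the GATA factor *gata5* (-0.44 ± 0.25, adjusted p = 0.390). *notch1b* held 4959.5 normalized counts in 48 hpf replicate 1, 10041 and 10581 in replicates 2 and 3, and 4983 to 6044 at 56 hpf. Thus 48 hpf replicate 1 stood with the 56 hpf pools. Without replicate 1 the limma adjusted p was 0.0369 for *tbx20*, 0.0268 for *notch1b* and 0.0474 for *gata5*. That fit called 2076 genes in all, against 225 with every pool. Over the other alternatives the limma adjusted p reached 0.954 for *tbx20*, 0.962 for *notch1b* and 0.957 for *gata5*.

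**Figure D4:**
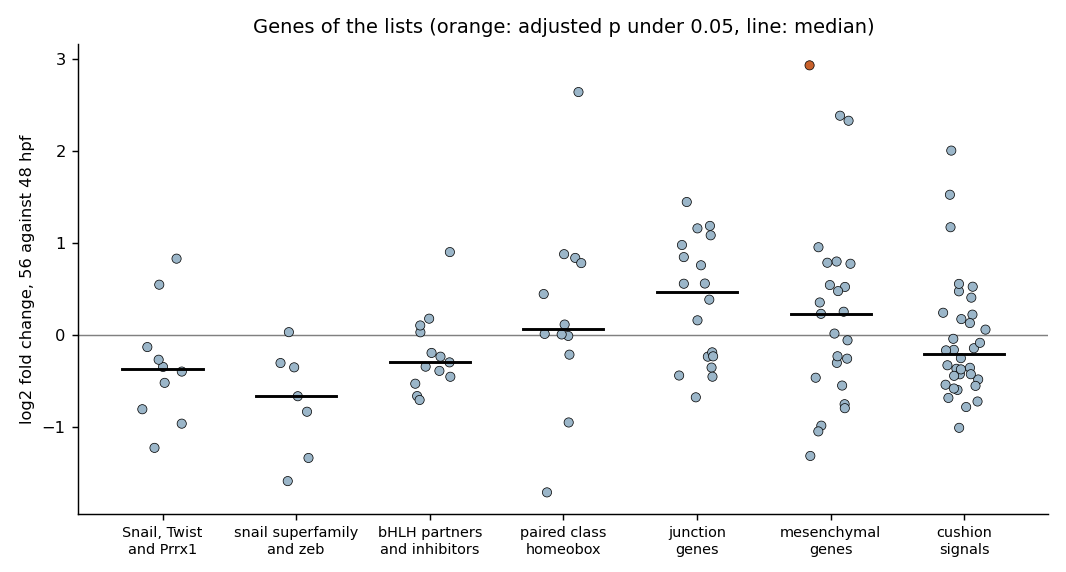
Log2 fold change, 56 against 48 hpf, of each tested row of the Snail, Twist and Prrx1 genes and of the 6 pathway lists, with black lines at the medians and orange for an adjusted p under 0.05 (limma). The medians are -0.37 for the Snail, Twist and Prrx1 rows, -0.67 for the Snail relatives and Zeb genes and -0.30 for the bHLH list. They are 0.06 for the paired-class, 0.47 for the junction, 0.23 for the mesenchymal and -0.21 for the cushion list, against -0.0073 over all genes. *lox* is the only row of these 7 groups called by limma.

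Snail, Twist and Prrx1 genes are also used outside the heart, in neural crest, pharyngeal arches, fin and skin mesenchyme, so markers of the tissues that a dissected pool could hold were read beside them. The neural crest and arch list summed to 13542, 9874 and 3672 normalized counts in the 48 hpf pools, against 8526, 7978 and 8786 in the 56 hpf pools. Its highest and lowest sums were both at 48 hpf, in replicates 1 and 3, as were the highest and lowest values of *snai2*, *snai1b* and *twist3*. Of its 13 tested rows, 8 had a log2 fold change below 0, and limma called 1 higher (0.87% of all genes) and 1 lower (0.211%), as did the quasi-likelihood test, while the likelihood ratio test and DESeq2 each called 3 higher and 3 lower. *barx1*, an arch gene, fell by 1.404 ± 0.21 on the log2 scale (adjusted p = 0.0389), and *dlx2b* rose, from 0, 4 and 0 reads in the 48 hpf pools to 122, 117 and 71 at 56 hpf (adjusted p = 0.0188), having passed the filter through the 56 hpf pools. Of the defining markers, *foxd3* had no more than 3 reads in any pool, and *sox10* stood at 51.7 ± 10.5 (SD, n = 3) against 153 ± 37.8 (SD, n = 3) normalized counts. The part of arch cells in the levels of the Snail, Twist and Prrx1 genes was not tested.

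The epicardium list summed to 1026 to 1994 normalized counts at 48 hpf and 2376 to 3048 at 56 hpf. All 5 of its 5 genes had a log2 fold change above 0. Limma called 0 and DESeq2 called 2 higher (5.59% of all genes), and 3 were higher at an unadjusted p under 0.05 (11.2%). The cartilage and fin list summed to 4764 to 5500 and to 5344 to 12899, the skeletal muscle list to 15291 to 33125 and to 32222 to 44177, and the blood list to 43158 to 68557 and to 7054 to 27750. Limma called 4 of the 9 cartilage and fin rows and 12 of the 19 skeletal muscle rows higher (0.87% of all genes) and 4 of the 10 blood rows lower (0.211%). In the same order, the quasi-likelihood test called 2, 10 and 3 in those directions, the likelihood ratio test 4, 13 and 7, and DESeq2 4, 14 and 9. Among the rows called by limma, *matn1* of the cartilage and fin list had 9, 3 and 0 reads in the 48 hpf pools, against 163, 154 and 430 at 56 hpf. *tnni2b.2* of the skeletal muscle list had 1, 2 and 1 reads, against 130, 158 and 216. Both passed the filter through the 56 hpf pools, where they were high. All 10 tested genes of the endocardium list and all 10 of the heart muscle list had log2 fold changes below 0 (50.5% of all genes), with medians of -0.46 and -0.75. None of them was called by limma or by edgeR's quasi-likelihood test, and 1 and 2 were lower at an unadjusted p under 0.05 (7.31% of all genes). The likelihood ratio test called 1 of each list lower (2.58%) and DESeq2 called 1 and 3 lower (2.07%). The endocardium sums were 19992 to 37092 normalized counts at 48 hpf and 18300 to 22330 at 56 hpf. In 48 hpf replicate 1 the endocardium and heart muscle sums were the lowest of that stage, while *twist1a* was at its highest there and *prrx1b* was level with the other 48 hpf pools. The part of these tissues in the results was not tested.

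**Figure D5:**
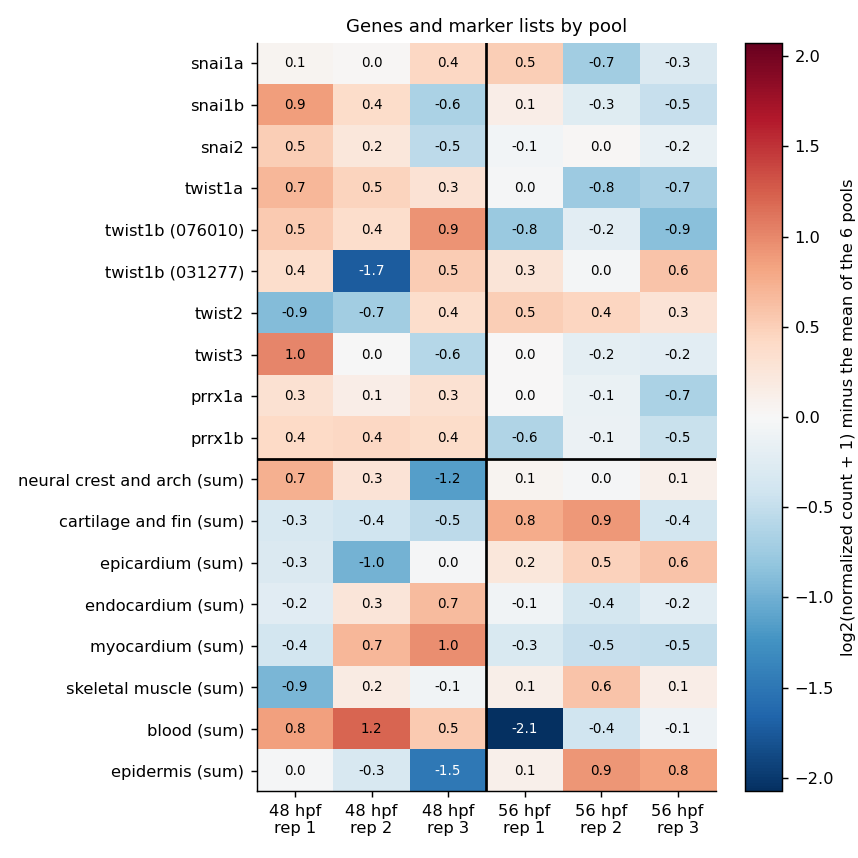
Level of each row and summed level of each marker list in each pool, as log2(normalized count + 1) minus the mean of the 6 pools, with red above and blue below that mean. *prrx1b* is even across the 48 hpf pools (0.377 to 0.425), while *snai1b*, *snai2* and *twist3* and the neural crest and arch list are above the mean in 48 hpf replicate 1 and below it in 48 hpf replicate 3.

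For the member of each family with the most reads, the genes with the most similar course over the 6 pools were sought among 12518 genes with a mean of at least 100 normalized counts. Likeness was the root mean square difference of the log2 values, each centred on the gene's own mean. Genes found this way share the member's course by selection, and a shared role was not tested. The closest to *snai2* were *zbtb14* (0.0628), *C1H7orf26* (0.0653) and *uba2* (0.0714), which like it were highest in 48 hpf replicate 1 and lowest in 48 hpf replicate 3. The closest to *twist1a* were *efnb3b* (0.0582), which encodes an ephrin, *ect2* (0.0813), a gene of cell division, and *si:ch211-156j22.4* (0.1003). *efnb3b* held 1485, 1287 and 1196 normalized counts in the 48 hpf pools, against 854, 556 and 608 in the 56 hpf pools. The closest to *prrx1b* were *leo1* (0.0404), *tsr2* (0.0464) and *rtel1* (0.0585).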

How the data were processed

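RNA was measured in 6 pools of dissected hearts, 3 at 48 hpf and 3 at 56 hpf. Per the methods, the authors used Tophat on the Zv9 assembly, retained reads with a unique alignment and counted them by HTSeq on Ensembl genes. The submitters' processing notes name CASAVA 1.8.2, Bowtie2 2.1.0, HTSeq 0.5.4p3 and DESeq 1.10.1. The labels describe amplified cDNA and the methods another library kit. Whether counting used the strand is not given in the sources used here. The deposited signal is a read count scaled by a library size factor, and 100% of the values were whole multiples (within 0.0001) of 1 read, which gave back the reads.

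Reads were scaled by median-of-ratios size factors of these 6 libraries. Genes were kept by edgeR's filterByExpr (minimum count 10, minimum total 15), and log2(normalized count + 1) was compared by limma with a variance trend and the replicate number as a block. Fold changes on this scale understate those of low genes. Benjamini-Hochberg adjustment ran over 20805 genes, with a threshold of 0.05. Depth ranged from 14369087 to 26942838 reads. The methods adjust for experiments, hence the block. Taking the replicate number for the experiment is a reading of the labels, which do not name experiments. The labels also carry other codes, whose meaning is not given in the sources used here. The only such code shared by both stages is on 48 hpf replicate 1 and 56 hpf replicate 3, which the block does not pair. A block by these codes was not tested. Software was limma 3.58.1, edgeR 4.0.16 and DESeq2 1.42.0 under R 4.3.3. The fit was run on simulated counts in which 200 genes changed 4-fold. The simulation held no differences between replicate numbers, so it cannot show how the fit treats smaller changes in these pools. The members and lists were chosen with earlier results of these data known. Named are all members, and from each pathway list the genes called and the 3 with the most normalized counts. The 3 genes nearest to the leading member of each family are also named. *cdh1*, *scrt2*, *snai3* and the marker genes were chosen after their values were seen. So were the junction, mesenchymal and cushion genes listed only by their unadjusted p. A gene that the rule names is not reported here. Alternatives were TMM, the deposited scale, pseudocounts of 0.5 and 10, no filter, at least 10 reads in every library, no block, edgeR's quasi-likelihood and likelihood ratio tests, DESeq2, each replicate number left out, and each pool left out without the block. Summing both *twist1b* rows, the shares within the Twist family and the share of a *twist1b* row were added after seeing the data.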

Additional observations from a re-analysis of the deposited data

How the results depend on the processing

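The number of Snail, Twist and Prrx1 rows called was 0 in the reported fit, 2 by edgeR's likelihood ratio test, 1 by DESeq2, 0 to 1 with a replicate number left out and, without the block, 1 without 56 hpf replicate 1 and 0 without any other pool. Without the replicate block it was 0, and the number of all genes called went from 225 to 560. That number was 346 with no filter on low counts and 135 with at least 10 reads in every library. It was 1741 by the likelihood ratio test and 1501 by DESeq2. With a replicate number left out it was 7 to 2076, the 2076 without replicate 1. Without the block it was 1176, 132 and 514 without 48 hpf replicates 1, 2 and 3, and 780.0, 97 and 112 without 56 hpf replicates 1, 2 and 3. Genes called on the 6 pathway lists numbered 1, and 2 on the deposited scale, with a pseudocount of 10 and with no filter, 0 with at least 10 reads in every library, 4 without the block, 15 by the likelihood ratio test, 13 by DESeq2 and 0 to 32 with a replicate number left out. Without the block they numbered 13, 0 and 6 without 48 hpf replicates 1, 2 and 3, and 8, 0 and 0 without 56 hpf replicates 1, 2 and 3. The cause of these differences was not tested.

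A direction turned only where a replicate or pool was left out. With a replicate number left out, the log2 fold change of *snai2* ranged from -0.40 to 0.091, that of *twist3* from -0.60 to 0.098, that of the *twist1b* row ENSDARG00000031277 from -0.016 to 0.88, that of *alx4a* from -0.42 to 0.11 and that of *dspa* from -0.0028 to 0.43. Without the block it was 0.089 for *snai2* and 0.17 for *twist3* without 48 hpf replicate 1, -0.18 for that *twist1b* row without 48 hpf replicate 2, and 0.080 for *alx4a* without 48 hpf replicate 3.

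The replicate numbers did not clearly pair the pools by the data. Across genes, the deviations of same-numbered pools from their stage means had correlations of 0.0289, 0.194 and -0.0541. Pools of different numbers had correlations from -0.165 to 0.0911, so the value of 0.194, for replicate 2, was the highest. Genes are not independent replicates, so these values cannot settle whether the pools were paired. On the deposited scale the median over all genes tested was 0.11 instead of -0.0073. No member changed direction there, though *snai2* stood at -0.0075, so that its direction was kept in name only. The 95% intervals of the members reached 0.46 to 1.31 to each side on the log2 scale, which limits the changes these pools could show.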
